A study of Mus musculus with 36 samples.

Results

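The change of the wild type mouse cortex between embryonic day 12.5 (E12.5) and E17.5 was followed across all genes in 12 of the 36 RNA-seq libraries of the series, 6 from E12.5 and 6 from E17.5. Members were chosen by label: every library of either embryonic age from a Chd8 wild type embryo, with 3 males and 3 females at each age. All embryos were on the C57BL/6J background, were collected as pairs with Chd8+/- littermates of the same sex, and each gave its own library. The tissue was flash-frozen dorsal telencephalon without its medial part. The matching 12 Chd8+/- libraries, which lack 1 working allele of the chromatin remodeller gene Chd8, serve below as a second measurement of the same interval and for comparison with wild type. RNA was extracted with miRNeasy Micro columns at E12.5 and miRNeasy Mini columns at E17.5, and the ages came as separate count tables, so kit and age cannot be told apart.

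At the start of this interval the dorsal telencephalon is mainly a sheet of dividing radial glia, the neural stem cells of the cortex, which produce neurons directly or through Eomes-expressing intermediate progenitors. Neurons of the deep layers are born first and those of the upper layers later, and all migrate outward along radial glial fibres, while interneurons arrive from the ventral telencephalon. Postmitotic neurons then extend axons and begin to form synapses, and radial glia turn to making glial cells. In bulk tissue, fewer cells of a type and less RNA per cell cannot be told apart.

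The libraries held 35330956 to 45947852 counts at E12.5 and 23774502 to 36542286 counts at E17.5, and levels are given as CPM, counts scaled per 1e+06 of the TMM-scaled library size. Age separated the libraries along the first principal component, which carried 86% of the variance, and every library matched its labelled sex by Xist and Y-linked genes. The E12.5 embryos varied more among themselves, with edgeR's common coefficient of biological variation at 0.142 against 0.0689 at E17.5. Markers of neighbouring tissue and of interneurons varied most at E12.5: the meningeal and fibroblast list summed to 530 to 1617 CPM at E12.5 and 17 to 32.5 CPM at E17.5, the interneuron list to 133 to 477 CPM at E12.5 and 644 to 845 CPM at E17.5, and the choroid plexus list to 11.5 to 108 CPM at E12.5 and 0.534 to 1.43 CPM at E17.5. The list of the cortical hem, a medial region, summed to 43 to 196 CPM at E12.5 and 33.9 to 40 CPM at E17.5. Results were therefore also computed without the 3 E12.5 libraries highest in fibroblast markers (males 1 and 2, female 1), without the 2 highest in the choroid plexus gene Ttr (male 2, female 3), without the 3 highest in Dlx1 (male 1, females 1 and 3), and without the E17.5 libraries numbered 21 to 24. In all 4 settings the counts given below for DNA replication, mitosis, radial glia, upper-layer neurons and GABA-A receptors were the same as with all 12 libraries.

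Of 18693 genes tested, 14722 (78.8%) differed between the ages at an adjusted p under 0.05 in edgeR's quasi-likelihood test with Benjamini-Hochberg adjustment. Higher at E17.5 were 7319 genes (39.2%) and lower were 7403 (39.6%), with a median log2 fold change of -0.02 over all genes. A change of at least 2-fold was called for 6175 genes (33%), 3267 upward and 2908 downward, and one of at least 4-fold for 1484 upward and 1081 downward. The 6 libraries of one age all lay above the 6 of the other for 12078 genes (64.6%). Below, "rose" and "fell" are used only for genes that passed this test, log2 fold changes are E17.5 over E12.5 with their standard error (SE), means carry the SD over 6 libraries, and each gene list is given by its counts and median, to be read against these shares for all genes.

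**Figure D1:**
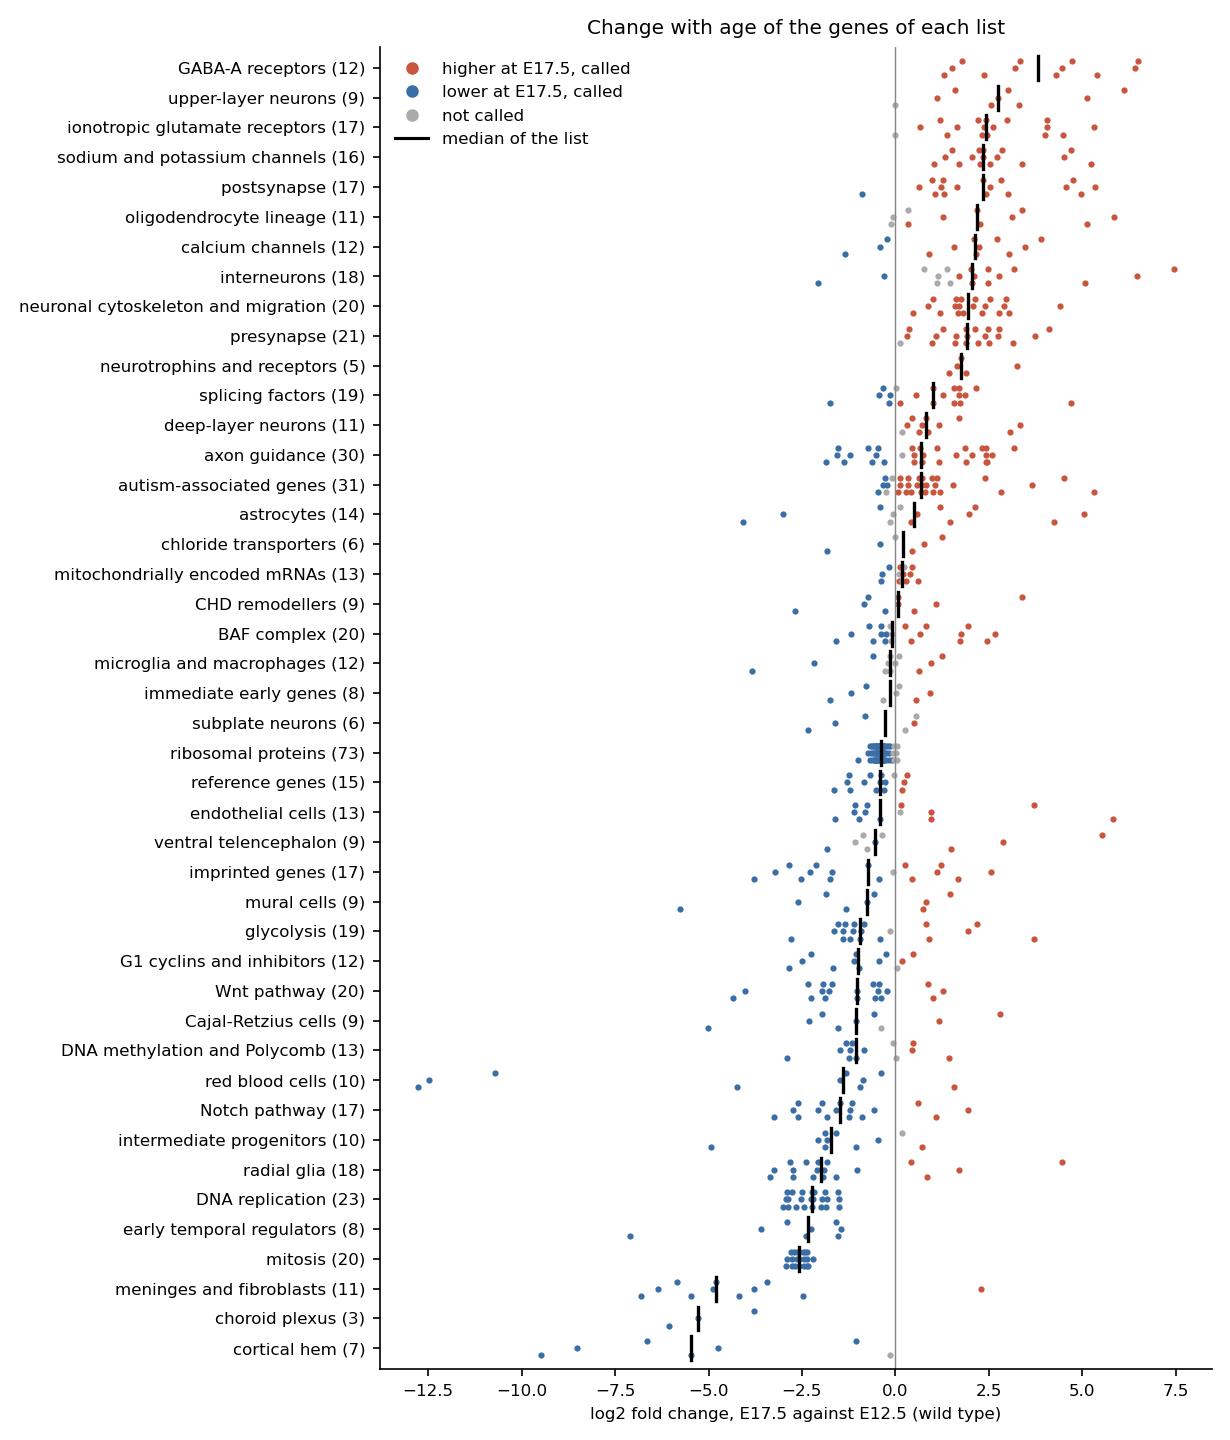
Gene lists are on the vertical axis and the log2 fold change of E17.5 over E12.5 is on the horizontal axis, with a point for each tested gene coloured by its call, a black mark at each list's median and the number of tested genes in brackets. The DNA replication and mitosis genes all lie below 0, and the GABA-A receptor and the sodium and potassium channel genes all lie above 0.

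Genes of the cell division cycle fell together: all 23 DNA replication genes fell, with a median log2 fold change of -2.23, and all 20 mitosis genes fell, with a median of -2.58. Mki67 (ENSMUSG00000031004), which encodes the antigen of the Ki-67 proliferation stain, lay at 1410 to 1558 CPM (median 1490) at E12.5 and 264 to 320 CPM (median 284) at E17.5. Every E12.5 library was above every E17.5 library, and the log2 fold change was -2.37 ± 0.051 (SE, adjusted p = 6.47e-14). Cdc6, which loads the MCM helicase onto replication origins, lay at 48.6 to 54.6 CPM (median 51.2) at E12.5 and 5.2 to 8.31 CPM (median 6.25) at E17.5. Mcm3, a subunit of that helicase, lay at 215 to 236 CPM (median 223) at E12.5 and 25.9 to 36.7 CPM (median 30.5) at E17.5. For both, the groups were again apart, with log2 fold changes of -3.0 and -2.9. Among mitotic genes, the spindle checkpoint kinase Bub1 fell from 179 ± 6.1 to 24.1 ± 2.14 CPM and the kinesin Kif20a from 158 ± 6.97 to 22.8 ± 4.06 CPM.

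The regulators of the G1 phase were less uniform, with 9 of 12 lower, 2 higher and a median of -1.01. All D-type cyclins, which drive entry into the cycle, fell: Ccnd1 by 2.85, Ccnd2 by 2.5 and Ccnd3 by 1.67 on the log2 scale. Per length, the level of Ccnd2 at E12.5 was 279 ± 27 CPM per kb of exon, and that of Ccnd1 was 46.2 ± 8.02. Here and below, exon length merges all exons annotated for a gene in GENCODE M21. Which isoforms were expressed was not measured, so levels per length of different genes are approximate. The cyclin-dependent kinase inhibitor Cdkn1b rose from 171 ± 12.3 to 235 ± 11.4 CPM and Cdkn2d rose by 0.17 on the log2 scale. The number of G1 genes higher was 1 in place of 2 with 3 other scalings or filters, without libraries 21 to 24, without the 2 libraries highest in Ttr, and without E12.5 male 2, female 2 or female 3 alone. The retinoblastoma gene Rb1, a brake on S phase entry, stood at 111 ± 7.39 and 115 ± 5.63 CPM and was not called.

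Promoters of cell cycle genes are known for short sequences bound by E2F, DREAM and NF-Y complexes, so the promoters of both lists were searched for them. The windows run from 250 bases before to 50 bases after the RefSeq gene start in GRCm38.p6 and are written 5′ to 3′ on the gene's strand. The counts were made on mm39, a different build, and no coordinate was converted. Cdc6 (chr11:98907901-98908200, plus strand) and Mcm3 (chr1:20820263-20820562, minus strand) are shown as the replication genes with the largest falls among those holding an E2F sequence, which is in capitals. Ube2c, the ubiquitin-conjugating enzyme of the anaphase-promoting complex (chr2:164769679-164769978, plus strand), and Plk1, a mitotic kinase (chr7:122159185-122159484, plus strand), are shown for the mitosis list. Both fell and hold the cell cycle homology region sequence, which is in capitals. Not every promoter of that list was considered for this choice, so a gene with a larger fall than Plk1 may also hold it.
Cdc6: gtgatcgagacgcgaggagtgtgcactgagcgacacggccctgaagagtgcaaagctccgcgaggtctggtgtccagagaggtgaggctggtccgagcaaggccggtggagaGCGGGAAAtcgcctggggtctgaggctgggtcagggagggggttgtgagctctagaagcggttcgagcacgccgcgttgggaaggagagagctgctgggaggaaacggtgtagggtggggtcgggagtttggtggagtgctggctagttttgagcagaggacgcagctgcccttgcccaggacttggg
Mcm3: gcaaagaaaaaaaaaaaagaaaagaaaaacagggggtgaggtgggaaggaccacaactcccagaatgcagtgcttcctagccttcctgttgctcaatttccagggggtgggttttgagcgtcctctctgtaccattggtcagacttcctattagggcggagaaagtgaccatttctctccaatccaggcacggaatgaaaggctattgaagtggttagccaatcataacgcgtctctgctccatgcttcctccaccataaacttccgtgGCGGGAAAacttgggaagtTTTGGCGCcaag
Ube2c: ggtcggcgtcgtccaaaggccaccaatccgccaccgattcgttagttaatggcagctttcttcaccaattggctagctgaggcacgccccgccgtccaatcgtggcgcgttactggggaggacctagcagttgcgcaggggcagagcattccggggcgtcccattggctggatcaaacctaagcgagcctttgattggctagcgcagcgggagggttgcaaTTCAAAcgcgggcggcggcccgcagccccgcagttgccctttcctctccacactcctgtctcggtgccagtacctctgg
Plk1: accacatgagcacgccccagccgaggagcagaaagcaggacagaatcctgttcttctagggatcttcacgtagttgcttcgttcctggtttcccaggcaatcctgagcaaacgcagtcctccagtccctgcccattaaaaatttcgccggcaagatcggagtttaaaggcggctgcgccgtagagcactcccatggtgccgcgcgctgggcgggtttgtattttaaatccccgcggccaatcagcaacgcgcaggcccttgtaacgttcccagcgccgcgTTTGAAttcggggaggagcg
The E2F search was for TTTCCCGC or TTTGGCGC anywhere in the window on either strand. It matched 7 of the 18 replication promoters with a sequence (38.9%), 0 of 16 mitosis promoters and 384 of 11903 promoters of tested genes (3.23%). The cell cycle homology region was searched as TTTGAA on either strand and matched 12 of 16 mitosis promoters (75%), 2 of 18 replication promoters (11.1%) and 14.5% of the promoters of tested genes. CCAAT, the core sequence bound by NF-Y, was searched likewise and matched 15 of 16 mitosis promoters (93.8%), 10 of 18 replication promoters (55.6%) and 42.7% of those of tested genes. Among lists whose genes all rose, TTTGAA matched 5 of 8 sodium and potassium channel promoters (62.5%) and 3 of 8 GABA-A receptor promoters (37.5%), and CCAAT matched 2 of 8 (25%) and 6 of 8 (75%). These matches describe letters in a window, and no binding was measured.

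Most radial glial genes fell as well, but not all of them. Of 18 tested, 14 fell and 4 rose, with a median of -2.0. Pax6 (ENSMUSG00000027168), the transcription factor that marks dorsal radial glia, lay at 233 to 263 CPM (median 255) at E12.5 and 52.4 to 68.3 CPM (median 60.9) at E17.5. The ages did not overlap, and the log2 fold change was -2.07 ± 0.056 (SE, adjusted p = 3.2e-13). The largest falls in the list were in Id4, an inhibitor of neuronal differentiation factors, from 690 ± 24.7 to 67.5 ± 9.65 CPM, in Hes1, a Notch target that maintains progenitors, from 48.2 ± 5.54 to 5.09 ± 0.405 CPM, and in Emx2, a patterning factor of the dorsal telencephalon, from 159 ± 17 to 22.6 ± 1.08 CPM. The intermediate filament genes Nes and Vim fell by 2.2 and 1.93.

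Among the 4 radial glial genes that rose, Tnc, an extracellular matrix glycoprotein of late and outer radial glia, lay at 4.66 to 38.6 CPM (median 11.8) at E12.5 and 305 to 375 CPM (median 327) at E17.5, with no overlap and a log2 fold change of 4.46 ± 0.43 (SE, adjusted p = 2.73e-07). The receptor phosphatase gene Ptprz1 rose from 332 ± 98.3 to 1075 ± 28.4 CPM, the fatty acid binding protein gene Fabp7 from 201 ± 18.4 to 359 ± 24.9 CPM, and the glutamate transporter gene Slc1a3, with overlapping groups, by 0.4 on the log2 scale.

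Intermediate progenitor genes fell in 8 of 10 cases, with a median of -1.71. Eomes, which encodes the transcription factor TBR2 of these cells, lay at 241 to 297 CPM (median 254) at E12.5 and 113 to 147 CPM (median 120) at E17.5. Its groups were apart, with a log2 fold change of -1.04 ± 0.066 (SE), and the proneural factor genes Neurog2 and Neurog1 fell by 1.84 and 4.93. Insm1, a zinc finger factor of newborn progenitors, rose from 58.5 ± 8.29 to 95.3 ± 10.3 CPM, and the somatostatin receptor gene Sstr2 stood at 35.8 ± 6.07 and 40.2 ± 4.51 CPM and was not called. Without E12.5 male 3 or E17.5 male 3 alone, 2 of these genes were higher in place of 1.

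**Figure D2:**
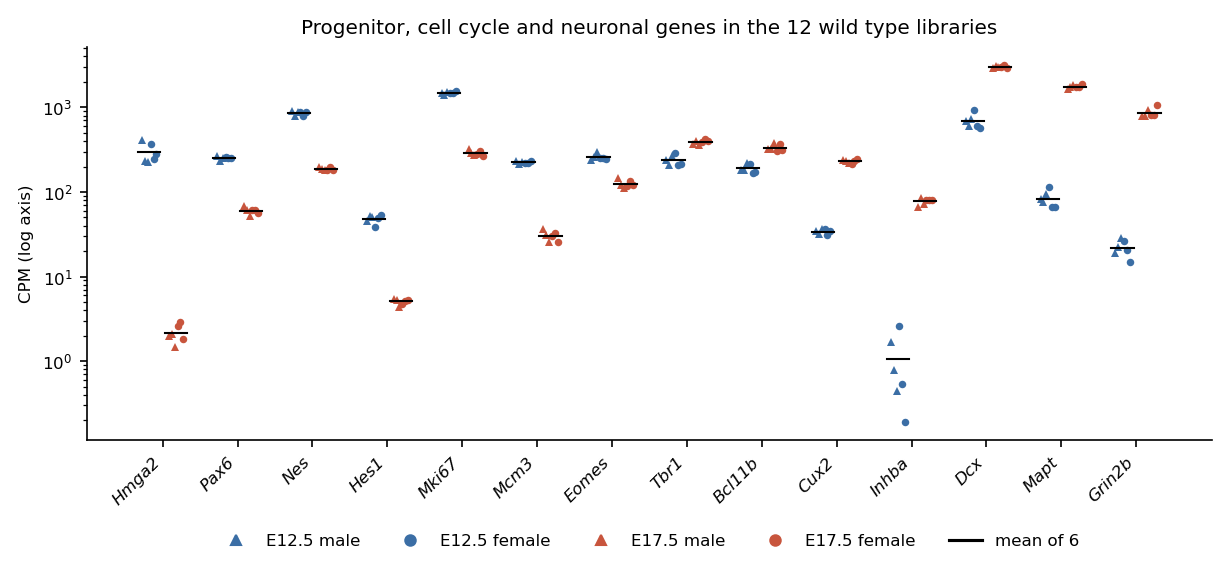
Each of 14 genes on the horizontal axis has a point for each wild type library, blue for E12.5 and red for E17.5, triangles for males and circles for females, on a log vertical axis of CPM, with a black line at the mean of 6. Pax6, Mki67 and Hmga2 lie lower in every E17.5 library than in any E12.5 library, and Inhba and Grin2b lie higher.

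The genes that mark the early, or young, state of progenitors fell without exception. All 8 tested members of the early temporal list fell, with a median of -2.34. Hmga2 (ENSMUSG00000056758), a chromatin protein of young stem cells whose messenger is a target of the let-7 microRNAs, lay at 223 to 416 CPM (median 262) at E12.5 and 1.48 to 2.93 CPM (median 2.02) at E17.5. No E17.5 library came near the E12.5 range, and the log2 fold change was -7.11 ± 0.22 (SE, adjusted p = 8.55e-13). Lin28a, an RNA-binding protein that blocks let-7 maturation, had 85 counts over the 6 E12.5 libraries and 0 over the 6 E17.5 libraries, at least 22.6-fold lower against a floor of 3 counts over the group. Its paralog Lin28b was counted at both ages and fell from 16.7 ± 3.34 to 6.09 ± 1.5 CPM. The ubiquitin ligase gene Trim71 fell by 2.91, the adhesion gene Prtg by 3.59 and the RNA-binding protein gene Igf2bp1 by 2.4 on the log2 scale.

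Notch signalling keeps progenitors from differentiating, through ligands on neighbouring cells, Notch receptors, and targets of the Hes and Hey families. Of 17 Notch pathway genes, 14 fell and 3 rose, with a median of -1.49. The ligand Dll1 fell by 2.08, the receptors Notch1, Notch2 and Notch3 by 1.82, 1.24 and 2.59, and the targets Hes1, Hes5 and Hey1 by 3.24, 2.75 and 2.6 on the log2 scale. The ligand gene Jag2 rose from 9.49 ± 0.944 to 36.7 ± 2.83 CPM, the glycosyltransferase gene Rfng from 21.4 ± 1.21 to 45.5 ± 1.6 CPM, and the Notch inhibitor gene Numbl from 42 ± 1.79 to 64.4 ± 4 CPM.

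In the Wnt pathway, which patterns the dorsal telencephalon and sustains progenitor division, 17 of 20 genes fell and 3 rose, with a median of -1.03. The DNA-binding factors changed most, with Tcf7l1 falling from 59.2 ± 8.3 to 2.94 ± 0.339 CPM and Lef1 from 44.7 ± 7.83 to 2.74 ± 0.254 CPM. The feedback target Axin2 fell by 1.77 and the receptor gene Fzd9 by 2.34 on the log2 scale. The ligand gene Wnt7b rose from 86.5 ± 4.9 to 157 ± 13.4 CPM, the secreted Dkk family gene Dkk3 from 18.1 ± 6.66 to 35.9 ± 3.46 CPM, and the receptor gene Fzd5 from 1.37 ± 0.95 to 3.3 ± 0.481 CPM.

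Genes of the neurons of the cortical layers mostly rose. Of 9 upper-layer genes 8 rose and 0 fell, with a median of 2.76, and of 11 deep-layer genes 10 rose and 0 fell, with a median of 0.81. The difference between these medians was not tested. Inhba, an activin subunit gene, lay at 0.189 to 2.63 CPM (median 0.662) at E12.5 and 66.4 to 83.9 CPM (median 80.2) at E17.5. The groups were far apart, with a log2 fold change of 6.13 ± 0.31 (SE, adjusted p = 1.94e-10). The layer factors Pou3f1 and Rorb rose from 7.81 ± 4.11 to 77.5 ± 5.16 CPM and from 10.9 ± 4.6 to 88.3 ± 9.14 CPM. Cux2 rose from 34.1 ± 2.44 to 231 ± 12.9 CPM, whereas its paralog Cux1 stood at 312 ± 29.5 and 312 ± 18.3 CPM and was not called.

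Among deep-layer genes the cofactor gene Ldb2 rose from 11.8 ± 1.16 to 119 ± 8.67 CPM, the thyroid hormone binding protein gene Crym from 1.86 ± 0.889 to 15.4 ± 2.75 CPM, and the transcription factor gene Sox5 from 135 ± 17 to 435 ± 26.1 CPM. Tbr1, the factor of corticothalamic layer 6 neurons, lay at 209 to 291 CPM (median 226) at E12.5 and 362 to 420 CPM (median 392) at E17.5, with no overlap and a log2 fold change of 0.71. Bcl11b, which encodes CTIP2 of subcerebral neurons, rose by 0.81 on the log2 scale. Fezf2, which specifies those neurons and is also made by early progenitors, stood at 81.4 ± 13.7 and 92.5 ± 5 CPM and was not called.

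Genes of the earliest-born neurons moved in both directions. Of 9 genes of Cajal-Retzius cells, the reelin-secreting cells of the marginal zone, 6 fell, 2 rose and 1 was not called, with a median of -1.05. The transcription factor genes Ebf2, Lhx1 and Ebf3 fell by 5.02, 2.31 and 1.97 on the log2 scale, and Trp73 fell from 19.4 ± 6.21 to 9.38 ± 0.791 CPM. Reln, the secreted guide of radial migration that interneurons also make, rose from 238 ± 33.5 to 534 ± 35.8 CPM, and the neuronal secreted factor gene Ndnf from 7.95 ± 4.08 to 56 ± 5.3 CPM. Of 6 subplate genes tested, 3 fell, 1 rose and 2 were not called, with a median of -0.27 that was 0.03 without the 3 libraries highest in Dlx1 and 0.26 without a low-count filter. Without E12.5 female 1 alone, 3 subplate genes were higher in place of 1. The lysophosphatidic acid receptor gene Lpar1 fell from 65.2 ± 6.62 to 13.1 ± 2.18 CPM, the neurexophilin gene Nxph4 fell by 1.62, and Nr4a2 rose from 32.4 ± 5.96 to 45.7 ± 10.5 CPM.

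Genes of cortical interneurons, the inhibitory cells that migrate in from the ganglionic eminences, were mostly higher, on a background that varied between the E12.5 libraries. Of 18 tested, 11 rose, 2 fell and 5 were not called, with a median of 2.04. Lhx6, the factor of interneurons from the medial eminence, lay at 0.702 to 2.7 CPM (median 2.46) at E12.5 and 69.2 to 79 CPM (median 72.4) at E17.5, with no overlap and a log2 fold change of 5.08 ± 0.16 (SE, adjusted p = 1.33e-12). The transcription factor gene Npas1 rose from 0.0611 ± 0.0466 to 11 ± 1.79 CPM, the neuropeptide genes Npy from 0.384 ± 0.125 to 35.1 ± 3.24 CPM and Sst from 1.08 ± 0.532 to 5.93 ± 0.889 CPM, and the neuregulin receptor gene Erbb4 from 14.1 ± 1.84 to 127 ± 11.7 CPM. Gad1, an enzyme of GABA synthesis, rose from 7.84 ± 7.82 to 51.8 ± 7.89 CPM. The factor gene Sp8, which dorsal progenitors also express, fell by 2.08 on the log2 scale.

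The 5 genes not called were Dlx1, Dlx2, Dlx5, Dlx6 and the antisense RNA gene Dlx6os1, whose reads cannot be told from those of Dlx6 because the strand setting of the counting is not given in the sources used here. Dlx1, which drives interneuron identity and migration, was at 40.9, 2.49 and 3.84 CPM in the E12.5 males and at 77.5, 2.23 and 16.6 CPM in the E12.5 females. At E17.5 it lay at 48.2 to 75.6 CPM (median 66.4). The E12.5 female 1 library was above every E17.5 library, and the log2 fold change of 1.47 ± 0.68 (SE, adjusted p = 0.0639) was not called. Without the 3 libraries highest in fibroblast markers, which include the 2 highest in Dlx1, 16 of 18 interneuron genes were higher. Markers of the ventral telencephalon, tissue that lies next to the dissected region, summed to 43.2 to 133 CPM at E12.5 and 44.1 to 100 CPM at E17.5. Of 9 tested, 3 were higher and 2 lower, with a median of -0.53 that was 1.53 without the 3 libraries highest in Dlx1. Both choices took out E12.5 libraries high in Dlx1, which lowers its E12.5 level, so neither the 16 nor the 1.53 is a test of its own. The dopamine receptor gene Drd1 rose from 0.415 ± 0.213 to 19.2 ± 1.24 CPM, and the ventral factor gene Zfp503 fell from 6.51 ± 3.08 to 1.87 ± 1.59 CPM. The part of the dissection in these values was not tested.

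**Figure D3:**
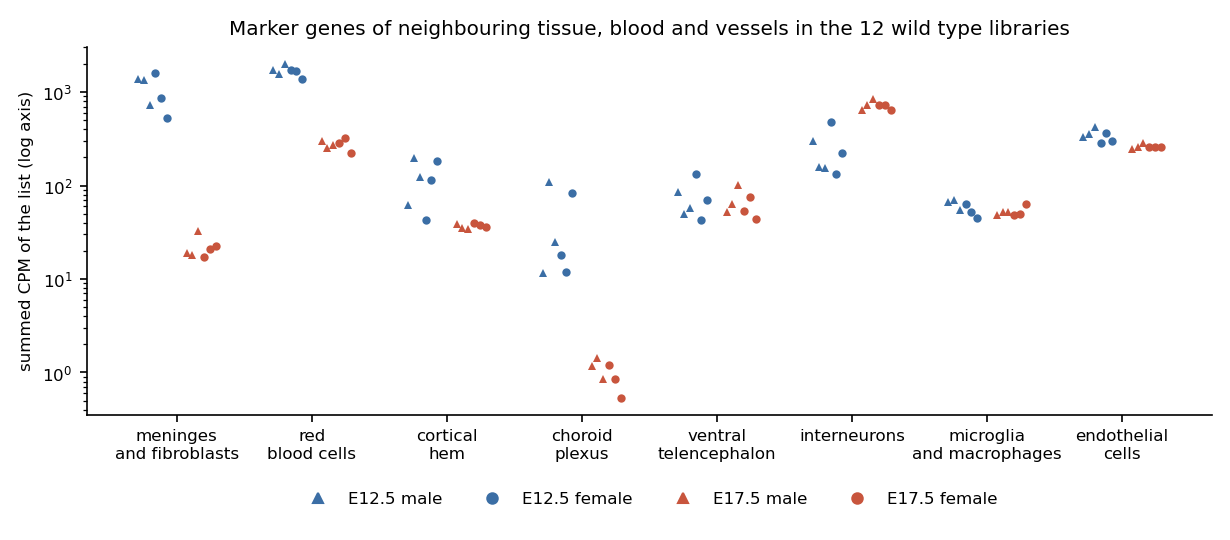
Summed CPM of 8 marker lists, for neighbouring tissue, blood, vessels, microglia and macrophages, and interneurons, is shown on a log vertical axis. The lists are on the horizontal axis with a point for each library, blue for E12.5 and red for E17.5, triangles for males and circles for females. The E12.5 libraries spread more widely than the E17.5 libraries in the fibroblast and choroid plexus lists and overlap them in the ventral list.

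All 20 genes of the neuronal cytoskeleton and of migration rose, with a median of 1.94. Dcx, the microtubule-binding protein of migrating neurons, lay at 568 to 931 CPM (median 653) at E12.5 and 2921 to 3181 CPM (median 3019) at E17.5. Mapt, which encodes the axonal protein tau, lay at 67.2 to 116 CPM (median 78.5) at E12.5 and 1644 to 1902 CPM (median 1733) at E17.5. Neither gene overlapped between ages, and the log2 fold changes were 2.13 ± 0.10 (SE) for Dcx and 4.4 ± 0.13 (SE, adjusted p = 6.94e-13) for Mapt. The neurofilament gene Nefl rose from 7.06 ± 0.863 to 58.2 ± 6.97 CPM and the growth cone gene Stmn2 from 104 ± 20.9 to 809 ± 41.7 CPM. The smallest rise was that of the dynein regulator gene Pafah1b1, by 0.48. Tuba1a, Tubb2b and other tubulin genes have close copies between which reads could be split.

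Axon guidance genes, a set of secreted cues and their receptors, moved in both directions, with 19 of 30 higher, 10 lower and a median of 0.69. The receptor gene Unc5d, expressed by upper-layer neurons, rose by 3.16 on the log2 scale. The Slit receptor genes Robo1 and Robo2 rose by 2.58 and 2.44, whereas Robo3, whose product lets commissural axons cross the midline, fell from 63.3 ± 8.87 to 0.506 ± 0.256 CPM and the ligand gene Slit2 fell from 96.3 ± 26.6 to 26.5 ± 4.12 CPM. The adhesion genes Cntn2 and L1cam rose by 2.44 and 2.32. The semaphorin coreceptor gene Nrp2 fell by 1.56, the ephrin gene Efnb1 by 1.54 and the netrin receptor gene Dcc by 0.73 on the log2 scale.

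Synaptic genes rose almost throughout. In the presynaptic list 20 of 21 rose and 0 fell, with a median of 1.91, and in the postsynaptic list 16 of 17 rose and 1 fell, with a median of 2.33. Complexin gene Cplx1, which clamps vesicle fusion, rose from 4.13 ± 1.38 to 71.7 ± 3.21 CPM, the active zone gene Rims1 from 5.89 ± 1.07 to 78.8 ± 6.37 CPM, and the calcium sensor gene Syt1 from 28.5 ± 7.12 to 252 ± 18.7 CPM. The vesicular glutamate transporter gene Slc17a6 stood at 70.7 ± 5.96 and 76.9 ± 3.9 CPM and was not called. Of the calcium/calmodulin kinase subunits, Camk2b rose from 10.4 ± 2.4 to 422 ± 28.8 CPM, whereas Camk2a, abundant in mature forebrain, fell from 33.5 ± 5.08 to 18.1 ± 2.73 CPM. The scaffold genes Dlg2 and Dlgap1 rose from 11.2 ± 2.43 to 346 ± 40.1 CPM and from 5.8 ± 2.17 to 160 ± 13.9 CPM, and Dlg4, which encodes PSD-95, rose by 1.27 on the log2 scale.

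Receptor genes for both main transmitters rose. Of 17 ionotropic glutamate receptor genes 16 rose and 0 fell, with a median of 2.41, and all 12 GABA-A receptor genes rose, with a median of 3.82. Grin2b (ENSMUSG00000030209), the NMDA receptor subunit of the embryonic brain, lay at 14.7 to 28.2 CPM (median 21.5) at E12.5 and 782 to 1069 CPM (median 814) at E17.5. The groups did not overlap, and the log2 fold change was 5.31 ± 0.15 (SE, adjusted p = 5.02e-13). Per length, Grin2b reached 35 ± 4.51 CPM per kb at E17.5 and Grin2a, the subunit typical of the mature brain, 0.465 ± 0.0585. Among AMPA receptor subunits at E17.5, Gria2 had 106 ± 5.98 CPM per kb, Gria1 30.7 ± 1.52, Gria4 12.9 ± 0.938 and Gria3 9.6 ± 0.263. The kainate receptor gene Grik2 stood at 118 ± 16.2 and 118 ± 12.3 CPM and was not called.

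Gabra5, a GABA-A alpha subunit, lay at 0.432 to 0.932 CPM (median 0.647) at E12.5 and 21.3 to 32.1 CPM (median 28.8) at E17.5, with no overlap and a log2 fold change of 5.41 ± 0.15 (SE, adjusted p = 3.51e-13). Per length, Gabra3 had 12 ± 0.716 CPM per kb at E17.5, Gabra5 9.43 ± 1.33 and Gabra2 7.86 ± 0.721. At E12.5 the levels per length were 3.22 ± 0.87 for Gabra2, 2.32 ± 0.221 for Gabra3 and 0.219 ± 0.0597 for Gabra5. Chloride transporters set whether GABA excites or inhibits, and of 6 such genes 3 rose and 2 fell, with a median of 0.21. The exporter gene Slc12a5 (KCC2) rose from 6.5 ± 0.857 to 15.5 ± 3.1 CPM and the importer gene Slc12a2 (NKCC1) fell from 118 ± 12 to 89.2 ± 2.62 CPM, so that their ratio per length within a library was 0.07 to 0.101 at E12.5 and 0.215 to 0.341 at E17.5. NKCC1 thus had the higher level per length in every library of both ages.

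All 16 voltage-gated sodium and potassium channel genes rose, with a median of 2.34. The M-current gene Kcnq5 rose from 2.45 ± 0.313 to 64.5 ± 3.87 CPM and the axonal sodium channel gene Scn2a from 10.3 ± 1.8 to 234 ± 12.9 CPM. Per length at E17.5, Scn3a, an embryonic sodium channel, had 22.9 ± 1.22 CPM per kb, Scn2a 18.4 ± 1.01, Scn8a 7.65 ± 0.406 and Scn1a 4.27 ± 0.263. Calcium channel genes were higher in 9 of 12 cases and lower in 3, with a median of 2.13, and 1 was lower in place of 3 without E17.5 male 2, female 1 or female 2 alone or without the 2 libraries highest in Ttr. The L-type gene Cacna1d rose by 3.89, the R-type gene Cacna1e by 3.46 and the beta subunit gene Cacnb4 by 3.04, and the beta subunit gene Cacnb2 fell by 1.36 on the log2 scale. Of the neurotrophin genes and their receptors all 5 tested rose, with a median of 1.76, led by the ligand gene Ntf3, from 0.733 ± 0.11 to 7.01 ± 0.573 CPM.

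Alternative subunits of BAF chromatin remodellers changed in opposite directions. BAF complexes open chromatin with the ATPase SMARCA4 or SMARCA2, and neurons are known to replace the progenitor subunits ACTL6A, PHF10 and SS18 by ACTL6B, DPF1 and SS18L1. Of 20 BAF genes 9 rose, 8 fell and 3 were not called, with a median of -0.10. Actl6b rose from 13.8 ± 3.76 to 87.6 ± 2.21 CPM and Actl6a fell from 131 ± 4.73 to 43.9 ± 2.48 CPM, and their ratio per length was 0.0703 to 0.143 at E12.5 and 1.69 to 1.96 at E17.5. Dpf1 rose from 45.2 ± 6.74 to 149 ± 8.43 CPM and Phf10 fell from 115 ± 4.95 to 88 ± 3.96 CPM, with a ratio of 0.3 to 0.459 at E12.5 and 1.45 to 1.68 at E17.5. Ss18l1 rose from 41.2 ± 3.77 to 158 ± 6.06 CPM and Ss18 fell from 103 ± 3.04 to 45.1 ± 3.23 CPM, with a ratio of 0.758 to 1.01 at E12.5 and 6.67 to 8.85 at E17.5. None of these ratios overlapped between ages. Per length, Ss18l1 was already near Ss18 at E12.5, when Actl6b was far below Actl6a. In CPM Ss18l1 was below Ss18 at E12.5, at 41.2 ± 3.77 against 103 ± 3.04, so that nearness rests on the exon lengths used.

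Of the other BAF genes, the ATPase gene Smarca2 rose from 72.5 ± 6.16 to 400 ± 19.4 CPM and Smarca4 stood at 565 ± 62.4 and 516 ± 43.2 CPM and was not called, and their ratio per length was 0.0474 to 0.069 at E12.5 and 0.314 to 0.406 at E17.5. Smarca4 kept the higher level per length in every library. Dpf3, Smarcd3, Smarcc2, Arid1b and Bcl7a rose by 1.76, 0.83, 0.67, 0.43 and 0.25 on the log2 scale. Dpf2, Smarcc1, Smarce1, Arid1a and Arid2 fell by 0.71, 0.61, 0.38, 0.28 and 0.25. Smarcb1, with a log2 fold change of -0.08 ± 0.055 (SE), and Smarcd1, with -0.11 ± 0.064, were not called. Smarca4, Smarcb1 and Smarcd1 were each called lower with upper-quartile scaling, with total counts alone and without E12.5 female 2, with values down to -0.283, -0.235 and -0.264. The call for Bcl7a was lost when libraries were scaled by total counts alone.

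**Figure D4:**
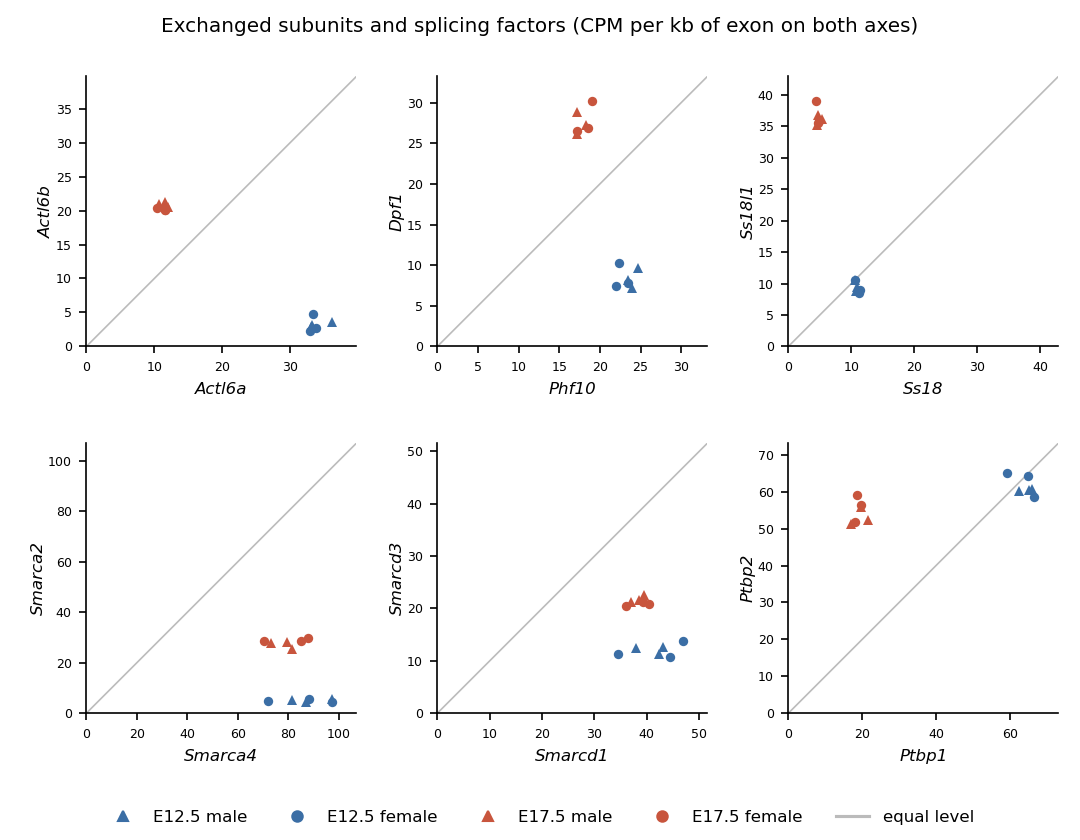
Each panel sets a pair of genes against each other in CPM per kb of exon on both axes, with a point for each wild type library, blue for E12.5 and red for E17.5, and a grey line of equal level. For Actl6b, Dpf1 and Ss18l1 against Actl6a, Phf10 and Ss18 every E17.5 point lies above the line, and for Smarca2 against Smarca4 every point of both ages lies below it.

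Chd8 itself (ENSMUSG00000053754), the gene altered in the littermates, changed little in wild type. It lay at 332 to 351 CPM (median 340) at E12.5 and 352 to 368 CPM (median 361) at E17.5, with no overlap but a log2 fold change of only 0.08 ± 0.027 (SE, adjusted p = 0.0168). That direction rests on the scaling: with total counts alone the value was -0.073. The call was also lost with upper-quartile scaling, without a low-count filter, without E12.5 male 2 alone, and without the libraries highest in fibroblast markers, in Ttr or in Dlx1. Of the 9 genes of the CHD family of ATPases, Chd8 included, 5 were higher and 4 lower, with a median of 0.08, and in each of those 7 settings 3 were higher. Chd7, a remodeller of progenitors, fell from 386 ± 57.1 to 60.3 ± 5.5 CPM, and Chd5, a neuronal member, rose from 15.6 ± 4.75 to 162 ± 16.4 CPM. In the NuRD complex, Chd4 fell by 0.74 and Chd3 rose by 1.07 on the log2 scale. Of 13 genes of DNA methylation and Polycomb repression 8 fell and 3 rose, with a median of -1.06. The maintenance methylation factor gene Uhrf1, which is also tied to S phase, fell from 304 ± 15 to 40.8 ± 3.72 CPM, and Rest, a repressor of neuronal genes, from 72.5 ± 5.07 to 25.8 ± 2.36 CPM. The Polycomb methyltransferase gene Ezh2 fell by 1.15, and its paralog Ezh1 rose by 1.45.

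Splicing regulators of neurons rose in 13 of 19 cases and fell in 5, with a median of 1.02. Rbfox1, a neuronal splicing factor, rose from 9.88 ± 2.58 to 259 ± 12 CPM, and Celf5 rose by 2.15. Ptbp1, which represses neuronal exons in progenitors, fell from 303 ± 13 to 90.4 ± 7.66 CPM, while Ptbp2, its neuronal paralog, fell only from 564 ± 23.4 to 500 ± 29.7 CPM. Their ratio per length, Ptbp2 over Ptbp1, was 0.88 to 1.1 at E12.5 and 2.42 to 3.17 at E17.5.

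Glycolytic genes mostly fell, with 13 of 19 lower, 5 higher and a median of -0.93. Hexokinase genes moved apart: Hk2 fell from 65.2 ± 4.39 to 9.4 ± 1.11 CPM and Hk1 rose from 42.9 ± 4.74 to 166 ± 12.8 CPM. The phosphofructokinase gene Pfkp rose from 35.2 ± 3.49 to 461 ± 39 CPM and the neuronal enolase gene Eno2 rose by 2.17. Among imprinted genes, expressed from one parental allele, 10 of 17 fell and 6 rose, with a median of -0.75. The growth inhibitor gene Grb10 fell from 884 ± 17.8 to 95 ± 10.3 CPM, the noncoding RNA gene H19 fell by 2.84, the growth factor gene Igf2, also a fibroblast marker, fell by 3.79, and the noncoding RNA gene Meg3 rose from 161 ± 46.2 to 943 ± 89.8 CPM. Of 8 immediate early genes tested, 2 were higher and 3 lower, with a median of -0.16, and Ier2 fell by 1.74 and Arc by 1.18.

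Common reference genes also moved. Of 15, 11 fell, 3 rose and 1 was not called, with a median of -0.40. Gapdh fell from 1041 ± 53.8 to 446 ± 17.9 CPM, and Pgk1, Gusb and B2m fell by 1.63, 1.24 and 0.83 on the log2 scale. Rpl13a, Tfrc, Sdha, Ppia, Hprt and Eef1a1 fell by 0.67, 0.53, 0.4, 0.38, 0.32 and 0.27. Actb, Ywhaz and Tbp rose by 0.23, 0.32 and 0.16, and with total counts alone the calls for Actb and Tbp were lost. Of 73 ribosomal protein genes 67 fell and 0 rose (2 without E17.5 female 3), with a median of -0.39, and of 13 mitochondrially encoded messengers 7 rose and 3 fell, with a median of 0.19, while 3 were higher with upper-quartile scaling and 2 with total counts alone. The call of mt-Co3 was lost in 12 of 26 settings and that of mt-Atp6 in 10, in each case including 6 in which 1 library was left out. Of 31 genes associated with autism 25 rose and 4 fell, with a median of 0.68. The largest rises among them were in Grin2b, Scn2a and the neuronal transcription factor gene Myt1l, from 59.4 ± 10.5 to 749 ± 31.5 CPM, and the largest fall was in the acetyltransferase gene Naa15, by 0.46.

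Genes of the oligodendrocyte lineage mostly rose, and those of astrocytes moved in both directions. Of 11 oligodendrocyte lineage genes tested 8 rose and 0 fell (1 without E12.5 female 2), with a median of 2.18, and of 14 astrocyte genes 8 rose and 3 fell, with a median of 0.50. Olig1, a factor of oligodendrocyte precursors, rose from 0.209 ± 0.165 to 12.3 ± 2.91 CPM and the precursor receptor gene Gpr17 from 0.187 ± 0.103 to 6.63 ± 1.34 CPM. Nkx2-2, another factor of that lineage, had 0 counts over the E12.5 libraries and 57 over the E17.5 libraries, at least 24-fold higher against the same floor. The precursor receptor gene Pdgfra stood at 33.2 ± 10.4 and 31.9 ± 3.82 CPM and was not called. Among astrocyte genes Aldh1l1 rose from 0.851 ± 0.544 to 29.6 ± 3.17 CPM and Gfap, still low, from 0.0963 ± 0.0428 to 1.9 ± 0.467 CPM. Gja1 and Fgfr3, which radial glia also express, fell from 174 ± 20.4 to 10.4 ± 1.49 CPM and from 218 ± 33.3 to 27.1 ± 3.1 CPM.

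Among 12 microglia and macrophage genes 3 rose, 3 fell and 6 were not called, with a median of -0.15 that was 0.086 without the 3 libraries highest in fibroblast markers. Without E17.5 female 3 alone, 6 were lower in place of 3. Their sum was 45.5 to 70.6 CPM at E12.5 and 48.5 to 62.8 CPM at E17.5. The microglial receptor gene P2ry12 rose by 0.94, whereas Tmem119, also a microglial gene, fell, with log2 fold changes of -2.358 to -1.065 over 26 alternative settings. Mrc1, a macrophage receptor gene, fell from 16.4 ± 2.86 to 1.15 ± 0.142 CPM. Of 13 endothelial genes 5 rose and 7 fell, with a median of -0.41. The blood-brain barrier genes Slco1c1 and Cldn5 rose from 0.952 ± 0.539 to 52.2 ± 3.19 CPM and from 8.62 ± 1.45 to 16.7 ± 0.682 CPM. Slc2a1, also a barrier gene, fell, with log2 fold changes of -1.26 to -1.064 over 26 alternative settings. The endothelial cadherin gene Cdh5 fell from 47.2 ± 8.63 to 15.2 ± 0.621 CPM. Of 9 mural cell genes 3 rose, led by Rgs5 with a rise of 1.46, and 6 fell, with a median of -0.77. Acta2, Notch3 and Myl9 were among those that fell. Their log2 fold changes over 26 alternative settings were -6.05 to -3.803, -2.746 to -2.495 and -2.126 to -0.81.

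The 3 lowest medians of the 44 lists were those of tissue around the cortex. Of 11 meningeal and fibroblast genes 10 fell and 1 rose, with a median of -4.79, and these counts were the same without each set of doubted libraries. The collagen gene Col3a1 lay at 296 to 617 CPM (median 519) at E12.5 and 4.23 to 8.61 CPM (median 5.94) at E17.5, with no overlap. Of 7 genes of the cortical hem, the medial signalling centre, 6 fell, with a median of -5.47, and all 3 choroid plexus genes tested fell, with a median of -5.28. Wnt8b, a hem ligand gene, had 9264 counts over the E12.5 libraries and 9 over the E17.5 libraries, and Wnt3a had 790 and 1. The medial wall was removed at both ages, and the part of the dissection in these changes was not tested.

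Red blood cells of the early embryo carry embryonic globins and later ones carry adult globins, and the embryonic genes fell. Hbb-y, the embryonic beta-like globin, lay at 899 to 1295 CPM (median 1087) at E12.5 and 0.089 to 0.264 CPM (median 0.207) at E17.5, with a log2 fold change of -12.47 ± 0.14 (SE, adjusted p = 5.28e-16). Every E12.5 library was far above every E17.5 library. Hbb-bh1, another embryonic beta-like globin, had 16402 counts over the E12.5 libraries and 1 over the E17.5 libraries. The embryonic alpha-like globin gene Hba-x fell from 235 ± 43.8 to 0.143 ± 0.0828 CPM. Of the adult genes, Hbb-bs rose from 61.5 ± 26 to 180 ± 23 CPM, Hbb-bt fell from 49.5 ± 10.1 to 37.7 ± 5.76 CPM and Hba-a1 fell from 102 ± 17.9 to 36.3 ± 3.69 CPM. The call for Hbb-bt was lost without E17.5 libraries 21 to 24. The ratio per length of Hbb-bt to Hbb-y was 0.0327 to 0.0464 at E12.5 and 137.0 to 314.0 at E17.5. Adult globin copies are nearly identical, so their split is uncertain. Over the list, 9 of 10 red blood cell genes fell, with a median of -1.40, and their sum was 1373 to 2010 CPM at E12.5 and 222 to 325 CPM at E17.5.

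Among genes with a mean of at least 10 CPM, Dync1i1, Sla and Mlip had some of the largest rises. Dync1i1, a neuronal dynein intermediate chain gene, lay at 0.918 to 2.69 CPM (median 1.35) at E12.5 and 214 to 234 CPM (median 228) at E17.5, a log2 fold change of 7.16 ± 0.15 (SE). Sla, an adaptor protein gene, lay at 1.27 to 2.95 CPM (median 2.08) at E12.5 and 249 to 312 CPM (median 274) at E17.5, and Mlip, a lamin-interacting protein gene, at 0 to 0.225 CPM (median 0.138) at E12.5 and 18.1 to 23 CPM (median 20.7) at E17.5. Groups that do not overlap were a condition for the rises and falls named here, so the separation of these 3 is not a result of its own. The other leading rises were in Nwd2, Jakmip3, Stum, Npy, the melanocortin receptor gene Mc4r and Caln1, with log2 fold changes from 6.32 to 7.23. Beside the globin, Wnt8b, Hmga2, Robo3 and Col3a1 genes already described, the leading falls included that of the fibroblast proteoglycan gene Lum. Also among them was Fndc3c1, which fell from 45.5 ± 6.37 to 0.21 ± 0.0783 CPM. Few genes switched completely: 3 went from at least 5 CPM in every E12.5 library to under 0.1 CPM in every E17.5 library (Hsd3b6, Cckar and Hbb-bh1), and 1 (Gm37814) went the other way. These 4 were named after their values were seen.

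Change also varied with gene length. Among protein-coding genes with a mean of at least 10 CPM, the 665 genes spanning at least 200 kb had a median log2 fold change of 0.94, and 48.7% of them rose at least 2-fold. For the 974 genes of 100 to 200 kb the median was 0.22 and the share 25.8%, and for the 762 genes under 5 kb they were -0.12 and 10.8%. With the genes of all lists but the ribosomal and mitochondrial ones left out, the longest class still had a median of 0.78 and a share of 46.0% over 594 genes. The Pearson correlation between log2 length and log2 fold change across genes was 0.192, a description, since genes are not independent replicates. Lengths came from GENCODE M21 on GRCm38, which gave one for 99.5% of the genes tested. The median length was 319 kb in the glutamate receptor list and 14.9 kb in the DNA replication list, against 25.7 kb over all protein-coding genes tested.

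**Figure D5:**
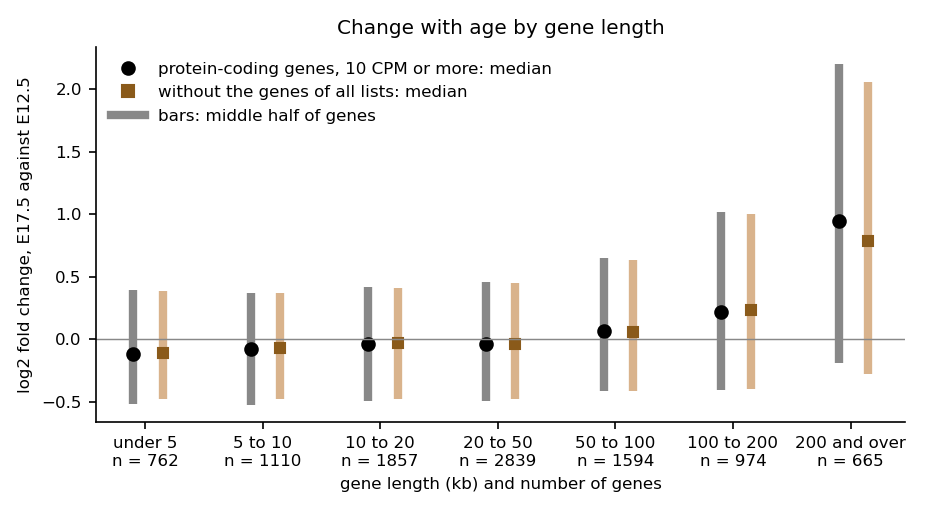
Protein-coding genes with a mean of at least 10 CPM are grouped by genomic length on the horizontal axis, and the log2 fold change of E17.5 over E12.5 is on the vertical axis. Black circles are medians, brown squares are medians without the genes of all lists but the ribosomal and mitochondrial ones, and bars span the quartiles. The median runs from -0.12 in genes under 5 kb to 0.94 in genes of 200 kb and over.

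The same interval measured in the Chd8+/- littermates gave a similar picture. There 14995 genes (80.2%) differed between the ages. Of the 14722 genes called in wild type, 13869 (94.2%) were called in the same direction in heterozygotes, 2 in the opposite direction and 851 were not called. Among the 6175 genes called at 2-fold in wild type, 6110 (98.9%) were called in the same direction. The embryos differ but come from the same litters. A test of whether the age effect differed by genotype called 26 genes (0.139%), 25 with a higher ratio in heterozygotes. The largest call was Sst, whose log2 fold change was 2.47 in wild type and 5.58 in heterozygotes, a difference of 3.12 ± 0.41 (SE, adjusted p = 0.00128, edgeR's quasi-likelihood test). The AMPA receptor gene Gria1 differed by 0.90 ± 0.14 (SE, adjusted p = 0.015) and 2600014E21Rik by 1.72 ± 0.28 (SE, adjusted p = 0.015). Sst lay at 0.324 to 1.68 CPM in the E12.5 wild type libraries and at 0.023 to 0.197 CPM in the E12.5 heterozygotes, with no overlap, and at 4.99 to 7.01 and 5.01 to 8.58 CPM at E17.5, where the genotypes overlapped. Gria1 lay at 8.83 to 13.8 CPM in E12.5 wild type and 4.46 to 7.71 CPM in E12.5 heterozygotes, again apart, and at 178 to 198 and 156 to 190 CPM at E17.5, with overlap. In the E12.5 wild type libraries Sst was at 0.832, 1.68 and 1.64 CPM in males 1, 2 and 3. It was at 1.24, 0.794 and 0.324 CPM in females 1, 2 and 3. The part of the dissection in this difference was not tested. The number of genes called moved from 5 to 451 upward when single libraries were left out, with 451 without E12.5 heterozygous male 2 and 5 without E12.5 wild type male 3, and was 1 without libraries 21 to 24. A test of whether the age effect differed between males and females called 0 genes (0%) in edgeR, with 359 genes at an unadjusted p under 0.05, and DESeq2 also called 0, with 268. In simulated data with 66 or 67 changed genes of each size, that test recovered 48 at a log2 difference of 2 and 10 at 0.5. Those data were simulated without an age effect, so the recovery in data with one was not tested.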

How the data were processed

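The authors deposited a table of raw counts per gene for each age, and the wild type columns of both embryonic tables were joined by gene row. Per the submitters' processing notes, STAR 2.7.9a, Subread and featureCounts were used with the build mm39; the sources used here give neither the annotation release nor the strand setting. Per the labels' protocols, polyA libraries were sequenced as paired reads. Of 55359 genes, 18693 passed edgeR's filterByExpr. The age effect was fitted with sex as a covariate by edgeR 4.0.16 (TMM scaling, quasi-likelihood test) in R 4.3.3, with Benjamini-Hochberg adjustment over all genes tested and a threshold of 0.05. The fit was tested on simulated data, where 64 of 66 genes changed by log2 2 and 45 of 67 changed by log2 0.5 were recovered. There were 7 false calls among the unchanged of the 18693 genes. Few genes changed in that simulation, whereas 78.8% were called in the data. It therefore cannot show how the scaling and the test behave when most genes change. Replicate numbers are those of the sample titles, which at E17.5 differ for some libraries from those in the column names of the deposited table. Replicates were separate embryos, and the libraries of one age differed beyond counting noise (chi-square per degree of freedom at least 6.75 over 30 pairs).

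The members and the 44 lists were chosen with earlier results of these data known. Named genes were the 10 largest rises and falls with a mean of at least 10 CPM, groups that do not overlap and no predicted-gene name, the 3 largest called changes of each list with a mean of at least 1 CPM, set pairs of paralogs, Chd8, the BAF and reference lists and the 3 genes with the smallest p of each interaction. Other list members were named for their known role, or because they went against their list, after their values were seen. Of the largest changes 1 rise and 1 fall, and some genes of the lists, which enter the counts and medians, are not reported here by name. Alternatives were DESeq2 1.42.0, limma-voom (limma 3.58.1), other scalings and filters, a replicate block and left-out libraries. Those without the libraries highest in fibroblast markers, Ttr or Dlx1 were chosen after seeing the data.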

Additional observations from a re-analysis of the deposited data

Results flagged for a closer look

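In 27 of 436 groups of 6 libraries the highest or lowest library stood apart from the other 5 by Dixon's criterion, where chance gives about 5% of groups. At E17.5, female 3 gave 8 of these: it was highest for B2m (17.51 CPM), Cacna1e (421 CPM), Smarcc2 (697 CPM), mt-Atp6 (41.0 CPM), mt-Co3 (37.7 CPM), the summed microglia list (62.8 CPM) and the summed calcium channel list (1695 CPM), and lowest for the summed radial glia list (2719 CPM). Male 3 was highest for Col1a1 (8.7 CPM), Grin2a (10.3 CPM), Slc12a5 (21.5 CPM), Sox10 (2.93 CPM) and the summed meningeal and fibroblast list (32.5 CPM). Male 1 was highest for Wnt3a (0.044 CPM) and Wnt8b (0.308 CPM) and lowest for Stmn2 (729 CPM) and Syt1 (217 CPM). Female 2 was highest for Hbb-bh1 (0.0318 CPM, a single count) and the summed deep-layer list (1933 CPM), and female 1 for Lum (0.646 CPM).

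At E12.5, female 1 was highest for Cacnb4 (17.3 CPM), Celf5 (72.3 CPM) and Zfp503 (12.4 CPM) and lowest for Hey1 (61.1 CPM). Male 1 was highest for Actl6a (140 CPM), male 3 was highest for Cntn2 (242 CPM), and female 3 was lowest for Lhx6 (0.702 CPM).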

How the results depend on the processing

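The number of genes called for the age effect was 14356 to 14988 under every alternative with the same filter rule and a test for any change, including DESeq2 (14642) and limma-voom (14716); it was 12838 of 15115 with a stricter filter, 16961 of 35987 with none, and 4971 when the test itself asked for more than 2-fold. With total counts as the only scaling the median over all genes was -0.175 in place of -0.023, and 41.3% of calls were higher in place of 49.7%. Of 165 named genes called, 156 were called under every setting that gave them an adjusted p, and mt-Atp6, mt-Co3, Clic6, Hbb-bt, Tmem163, Actb, Tbp, Bcl7a and Chd8 were not. Among the 156, Tnc and Wnt3a had an adjusted p in 25 of 26 settings. Directions turned for Chd8 and the median of the CHD list (both -0.073 with total counts), the subplate median (0.26 without a filter, 0.032 without the libraries highest in Dlx1), the immediate early median (0.003 without a filter), the ventral median (0.287 without the libraries highest in fibroblast markers, 1.53 without those highest in Dlx1) and the microglia median (0.086 without those highest in fibroblast markers). The cause was not tested.

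The age by genotype calls depended most on the processing. Against 25 genes with a higher ratio in heterozygotes, DESeq2 called 158, no filter 99, and the fit without libraries 21 to 24 called 1, and leaving out single libraries gave 5 to 451. Against 1 with a lower ratio, DESeq2 called 26, limma-voom 2, no filter 3, total counts 0, the fit without libraries 21 to 24 called 0, and leaving out single libraries gave 0 to 34.

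With the replicate number as a block, 14571 genes were called for the age effect, 14834 in heterozygotes, 32 for age by genotype and 0 for age by sex. The numbers do not pair the embryos: correlations of same-numbered libraries across ages were -0.184 to 0.0191 over 6 pairs, and 0 of 6 E12.5 libraries correlated best with their own number.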

Other observations

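The values here were picked after the data were seen and carry no test. Of 13 interferon response genes (Rnf213, B2m, Oasl2, Usp18, Bst2, Ifit1, Ifit3, Irf7, Isg15, Gbp3, H2-K1, H2-D1 and Psmb8), wild type female 3 was the highest E17.5 wild type library in all 13, with a median ratio of 3.7 to the median of the group. Among the E17.5 heterozygotes, female 3 was highest in 12 of 13, with a median ratio of 3.69. At E12.5 the library of that number was highest in 1 of 13 in wild type and 3 of 13 in heterozygotes. Rnf213 was at 40.0 CPM in E17.5 wild type female 3 and at 10.1 to 15.3 CPM in the other 5 libraries.

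The kinase gene Pkn3 fell into separate levels at E17.5. In wild type it was at 1.33, 1.69 and 2.07 CPM in female 1, female 3 and male 1 and at 18.5, 20.4 and 22.4 CPM in male 3, female 2 and male 2. In heterozygotes it was at 22.8 CPM in male 2 and at 1.5 to 2.41 CPM in the other 5, while at E12.5 it lay between 10.3 and 11.6 CPM in wild type and between 13 and 15.3 CPM in heterozygotes.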
